A study of Mus musculus with 6 samples.

Results

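The genes described here drive or restrain the passage of a cell through G1 into S phase. They were taken by name, with no cut on a measured value, although earlier results of these data were known when the set was drawn up. They are the D cyclins Ccnd1, Ccnd2 and Ccnd3, their kinases Cdk4 and Cdk6, the kinase inhibitors Cdkn1b and Cdkn2c, and the pocket proteins Rb1, Rbl1 and Rbl2. Of these 10 genes, 9 had a probe on the Illumina mouse BeadArray and 7 had a probe bright enough to test. They carried 18 of the 25696 probes analysed, of which 12 were tested and 6 were not detected on any of the 6 arrays. RNA came from brains of C57/BL6 embryos at E12.5 (embryonic age in days). The 3 knockout brains were Nestin Cre+ and carried Rest GTi/GTi together with p53 fl/fl, and the 3 control brains came from littermates that were Rest GTi/GTi, p53 fl/fl and carried no Cre. Both groups thus shared the same inverted gene trap in Rest and the same floxed p53 alleles, and they differed by the Cre transgene, which turns the gene trap so that it stops Rest transcription and deletes p53. Nestin Cre acts in neural progenitors and is inherited by their progeny. By this design other cells of the brain, such as those of vessels, meninges and blood, should keep both genes, but this was not measured. There was no group with Cre alone, so effects of Cre and of the alleles cannot be told apart, and on these 6 arrays loss of REST was not measured apart from loss of p53.

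D cyclins bind CDK4 or CDK6 in response to growth signals. The active kinase phosphorylates the pocket proteins RB, p107 and p130, which then release E2F transcription factors that switch on genes for DNA replication. p18, the product of Cdkn2c, binds CDK4 and CDK6 directly, and p27, the product of Cdkn1b, inhibits cyclin E-CDK2 and holds cells out of the cycle. In the embryonic brain these proteins set whether a progenitor in the ventricular zone divides again or leaves the cycle to become a neuron. Much of their control is on the protein (phosphorylation and turnover), which an array of RNA does not measure.

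Between 13416 and 13889 probes were detected per array (52.2% to 54.1% of all probes). Knockout replicate 2 stood apart from the other 5 arrays: its score on the first principal component was 40.7, against -14.8 to -0.84 for the others. Markers showed brain tissue in all samples, with 9 of 11 neural progenitor markers and 10 of 11 young neuron markers bright enough to test, although Pax6 was detected on 0 arrays. The genotype could not be checked on the arrays, because no array detected the only Rest probe (0 of 6) and Trp53 was not analysed here. No probe of the 13755 tested passed an adjusted p of 0.05 in limma with Benjamini-Hochberg adjustment (0%, smallest adjusted p = 0.383), while 632 (4.59%) had an unadjusted p under 0.05. Run on the same values, the methods' t-test gave 0 probes after adjustment and 624 before it. The labels call the 3 samples of a group biological replicates but give no litter or sex, so the p-values measure only the spread between these samples.

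No gene of the G1 machinery passed the test between knockout and control brains. All 12 tested probes had an adjusted p of 0.999 in limma, and 0 of 12 had an unadjusted p under 0.05. Differences lay between -0.49 for Ccnd2 and 0.40 for 1 of the Ccnd3 probes, on the log2 scale and always as knockout minus control, with a median of -0.05 against 0.01 over all tested probes. The typical size of a difference, without its sign, was 0.122 for these probes and 0.120 for all probes. With a median standard error (SE) of 0.190, the arrays could not resolve small changes of these genes, and the interval of each difference says how large a change remains possible.

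**Figure D1:**
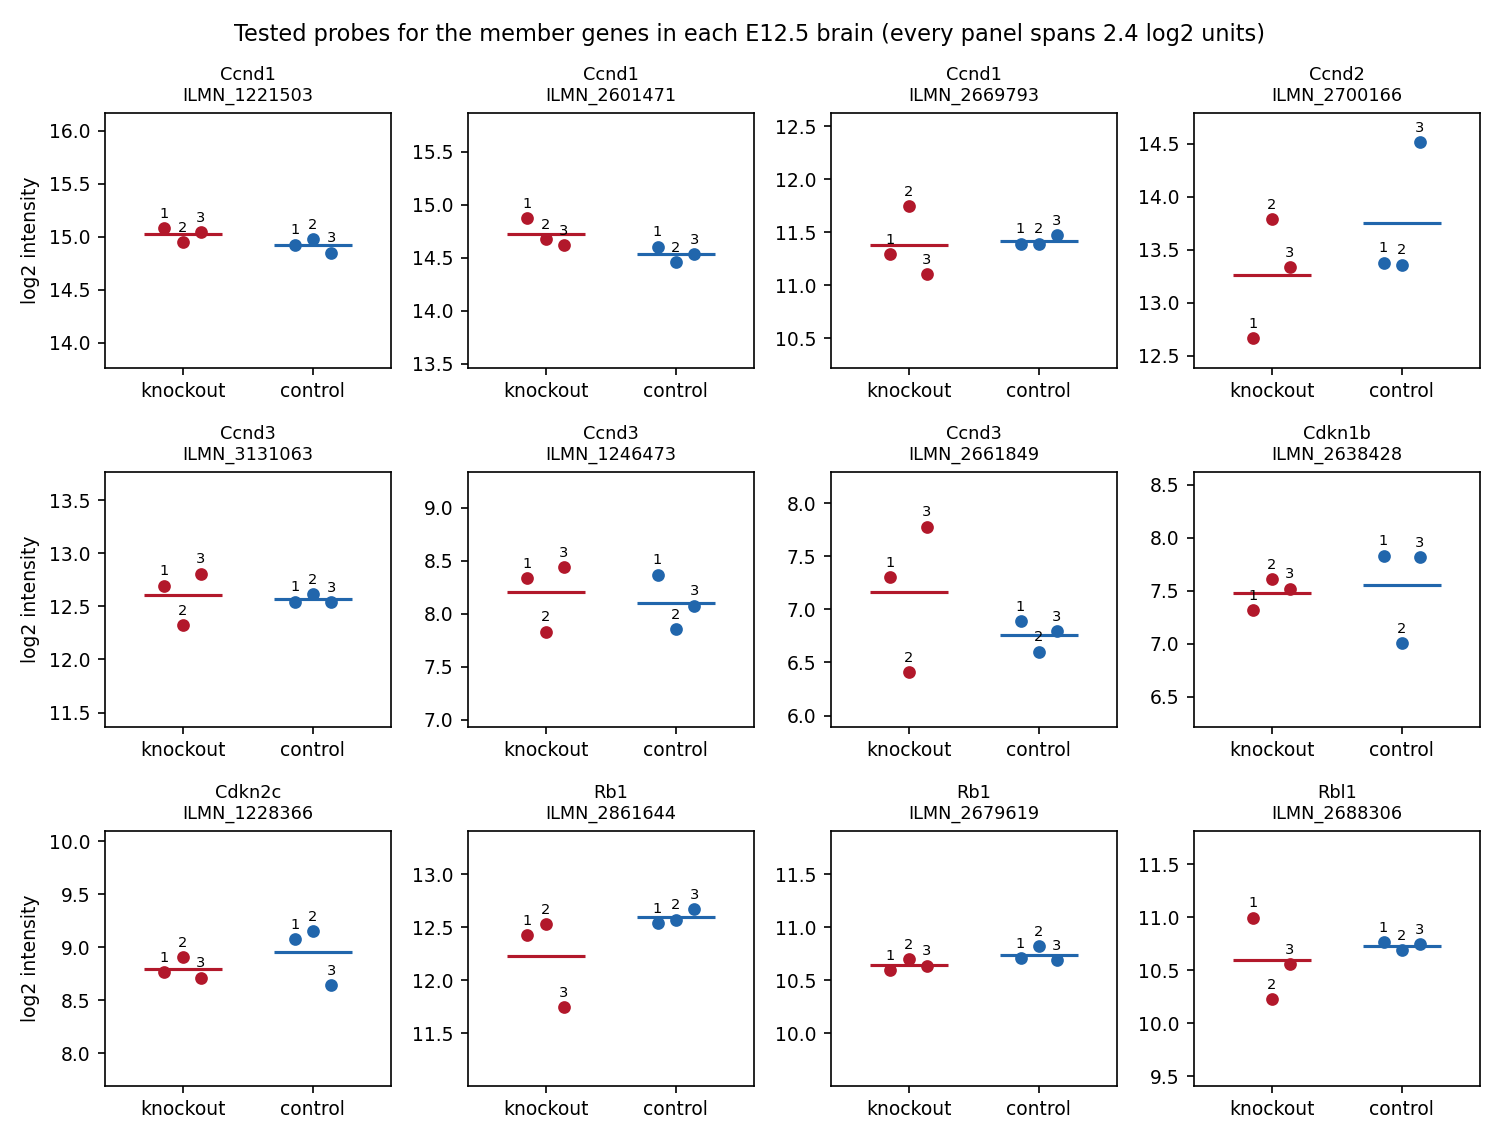
Log2 intensity of each of the 12 tested probes in the 3 knockout brains (left, red) and the 3 control brains (right, blue). Numbers are replicate numbers and lines are group means. The groups overlap in 10 panels, and in the other 2, for Ccnd1 (ILMN_2601471) and Rb1 (ILMN_2861644), they do not.

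Ccnd1 encodes cyclin D1, the D cyclin best known for driving progenitor division in the embryonic cortex, and 3 probes measured it. The probe ILMN_1221503 read 15.08, 14.95 and 15.04 in knockout brains, against 14.93, 14.98 and 14.85 in control brains. The probe ILMN_2601471 read 14.87, 14.67 and 14.62 in knockout brains, against 14.60, 14.46 and 14.54 in control brains. All 3 knockout values of ILMN_2601471 stood above all 3 control values, though the lowest knockout brain and the highest control brain were only just apart, whereas the groups overlapped for ILMN_1221503. The difference for ILMN_2601471 was 0.19 (SE 0.12, 95% interval -0.11 to 0.48, unadjusted p = 0.173 in limma), which allows a fold of 0.929 to 1.40. For ILMN_1221503 the difference was 0.11 (SE 0.11, -0.16 to 0.37, unadjusted p = 0.381 in limma).

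The remaining Ccnd1 probe, ILMN_2669793, read 11.29, 11.74 and 11.10 in knockout brains, against 11.39, 11.39 and 11.47 in control brains. Here the controls lay close together while knockout replicate 2 was the highest and knockout replicates 1 and 3 the lowest of all 6. The difference was -0.04 (SE 0.18, -0.47 to 0.39), and without knockout replicate 2 it was -0.22. The 3 Ccnd1 probes thus did not share a direction, and the sign for ILMN_2669793 changed when single brains were left out.

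Ccnd2 encodes cyclin D2, which in the developing cortex is known from the basal processes of radial glia and from basal progenitors. Its probe, ILMN_2700166, read 12.67, 13.79 and 13.33 in knockout brains, against 13.38, 13.36 and 14.51 in control brains. Means were 13.26 ± 0.56 in knockout brains and 13.75 ± 0.66 in control brains (SD, n = 3 each). The spread in the controls was the widest of any probe for the G1 genes. Control replicate 3 was the highest and knockout replicate 1 the lowest, and the other 4 brains lay between them with the groups overlapping. The difference of -0.49 (SE 0.40, -1.43 to 0.45, unadjusted p = 0.258 in limma) allowed a fold of 0.372 to 1.37. Without control replicate 3 it was -0.11, without knockout replicate 1 it was -0.19 and without knockout replicate 2 it was -0.75.

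Ccnd3 encodes cyclin D3, and its 3 probes spanned bright to dim signals. The probe ILMN_3131063 read 12.70, 12.32 and 12.81 in knockout brains, against 12.55, 12.61 and 12.54 in control brains. The probe ILMN_1246473 read 8.33, 7.83 and 8.44 in knockout brains, against 8.37, 7.85 and 8.07 in control brains. The probe ILMN_2661849 read 7.30, 6.41 and 7.78 in knockout brains, against 6.89, 6.60 and 6.79 in control brains. In all 3 probes knockout replicate 2 was the lowest of the 6 brains and knockout replicate 3 was the highest. The differences were 0.04 (SE 0.15), 0.10 (SE 0.21) and 0.40 (SE 0.33), in the same order of probes. The signal of ILMN_2661849 was near background: it was detected on 5 arrays and not on knockout replicate 2, where its detection p-value was 0.0627.

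Without knockout replicate 2, the Ccnd3 differences were 0.19, 0.29 and 0.78. For ILMN_2661849 the unadjusted p without that brain was 0.00672 in limma, with an adjusted p of 0.705 over all probes. Over all tested probes, 869 (6.32%) had an unadjusted p under 0.05 without that brain.

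Of the kinases, neither could be compared. Cdk6 had 1 probe, ILMN_1259714, which read 5.89, 5.84 and 6.0 in knockout brains, against 6.27, 6.26 and 6.05 in control brains. All 6 values were below the signal at which any probe was detected, with detection p-values of 0.0990 or more, so they give no fold. Cdk4, whose product is the main partner of D cyclins in most dividing cells, was not analysed here.

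**Figure D2:**
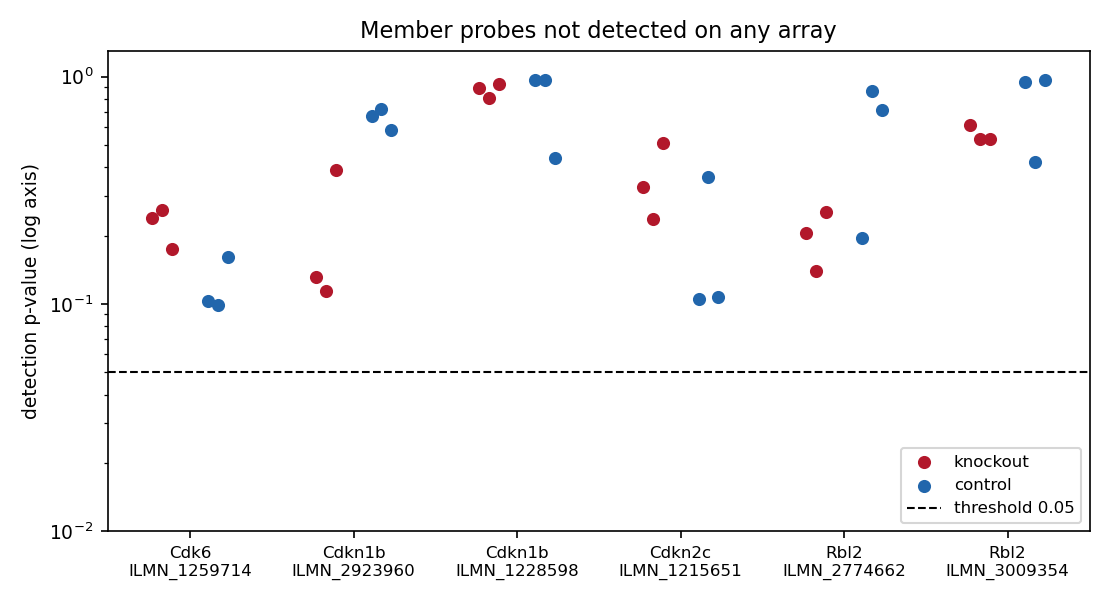
Detection p-value (log axis) of the 6 probes that were not detected, on each knockout array (red, left of each pair) and each control array (blue). Every value lies above the threshold of 0.05 (dashed line), and the lowest is 0.0990 for Cdk6.

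The inhibitors were dim. Cdkn1b, the gene for p27, had 1 tested probe, ILMN_2638428, which read 7.32, 7.61 and 7.52 in knockout brains, against 7.83, 7.01 and 7.82 in control brains. The knockout values lay inside the range of the control values, because control replicate 2 was the lowest of the 6 and control replicates 1 and 3 were the highest. The difference was -0.07 (SE 0.24, -0.64 to 0.50, unadjusted p = 0.785 in limma). The other Cdkn1b probes, ILMN_2923960 and ILMN_1228598, were detected on 0 arrays. ILMN_2923960 read 6.14, 6.18 and 5.66 in knockout brains, against 5.42, 5.37 and 5.47 in control brains, all within the range of undetected signals.

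Cdkn2c, the gene for p18, is known in the mouse brain as a brake on progenitor division. Its tested probe, ILMN_1228366, read 8.77, 8.91 and 8.71 in knockout brains, against 9.08, 9.15 and 8.64 in control brains. Control replicates 1 and 2 were above all knockout brains and control replicate 3 was below them. The difference was -0.16 (SE 0.17, -0.55 to 0.23, unadjusted p = 0.363 in limma), which allowed a fold of 0.681 to 1.17. A further Cdkn2c probe, ILMN_1215651, was detected on 0 arrays.

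Of the pocket proteins, Rb1 and Rbl1 were measured and Rbl2 was not. Rb1 encodes RB, the tumour suppressor that holds E2F1 to E2F3 in check. Its brighter probe, ILMN_2861644, read 12.42, 12.53 and 11.75 in knockout brains, against 12.54, 12.57 and 12.67 in control brains. All 3 knockout values were below all 3 control values, but only knockout replicate 3 was clearly apart: knockout replicate 2 and control replicate 1 were nearly equal. Means were 12.23 ± 0.43 in knockout brains and 12.59 ± 0.07 in control brains (SD, n = 3 each). The difference of -0.36 (SE 0.22, -0.87 to 0.15, unadjusted p = 0.142 in limma) was the one with the smallest p among the 12 probes, and it was -0.12 without knockout replicate 3. The other Rb1 probe, ILMN_2679619, read 10.59, 10.70 and 10.64 in knockout brains, against 10.71, 10.82 and 10.69 in control brains. Knockout replicate 3 was not low on this probe, and the groups overlapped by a narrow margin. Its difference was -0.10 (SE 0.11, -0.36 to 0.17), the same sign as for the brighter probe.

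Rbl1 encodes p107, a pocket protein whose gene is itself a known E2F target in cycling cells. The promoter window of Rbl1 is shown because it was the only window among these genes with a match to an E2F site. It covers the 250 bases before and the 50 bases after the gene's start in RefSeq (GRCm38.p6, chr2:157204485-157204784, minus strand), and the capitals mark the match at positions -18 to -11 from the start.
Rbl1 promoter: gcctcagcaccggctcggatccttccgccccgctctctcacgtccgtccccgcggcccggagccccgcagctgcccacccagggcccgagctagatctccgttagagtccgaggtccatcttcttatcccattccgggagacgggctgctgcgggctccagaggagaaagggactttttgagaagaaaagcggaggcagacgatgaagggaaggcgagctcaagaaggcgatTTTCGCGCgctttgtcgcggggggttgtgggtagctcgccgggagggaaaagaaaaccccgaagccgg
The spellings TTTCGCGC, TTTGGCGC and TTTCCCGC were searched on both strands, and overlapping matches were allowed. TTTCGCGC was found in 0.323% of 32851 promoter windows of the same length, and any of the spellings in 1.84%. Windows were found for 7 of the 10 genes, 9 windows in all, and not for Ccnd1, Ccnd2 and Rb1. Parts of the RE1 site to which REST binds, TTCAGCACC and GGACAGCGC, were found in 0 of these 9 windows and in 0.371% and 0.405% of all windows. A match or its absence describes the letters of a window and not binding.

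The Rbl1 probe, ILMN_2688306, read 10.996, 10.23 and 10.56 in knockout brains, against 10.77, 10.69 and 10.74 in control brains. The controls lay within a narrow band, with knockout replicate 1 above it and knockout replicates 2 and 3 below it. Means were 10.60 ± 0.38 in knockout brains and 10.73 ± 0.04 in control brains (SD, n = 3 each). The difference was -0.14 (SE 0.20, -0.61 to 0.34, unadjusted p = 0.510 in limma), and it was 0.04 without knockout replicate 2. Rbl2, the gene for p130, had 2 probes, both detected on 0 arrays, with values of 5.47 to 6.08 in knockout brains and 5.14 to 5.99 in control brains.

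**Figure D3:**
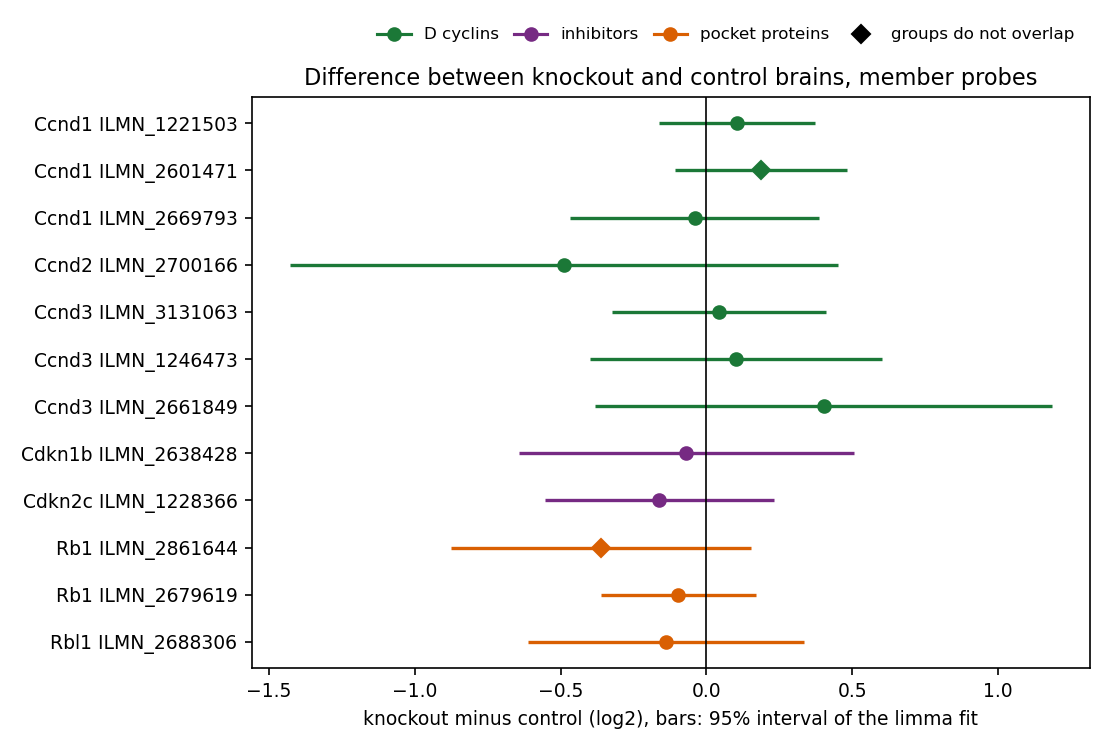
Difference between knockout and control brains on the log2 scale for each of the 12 tested probes, with the 95% interval of the limma fit. Colours give the role of the gene and diamonds mark the 2 probes whose groups do not overlap. Every interval includes 0, and the widest is that of Ccnd2.

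Counts over the 12 probes were read against the same counts over the whole array. The groups did not overlap for 2 of 12 probes (16.7%), against 1279 of 13755 probes (9.30%). Of these 2, 1 was higher in knockout brains (Ccnd1) and 1 lower (Rb1), and 4.68% and 4.62% of all tested probes did so. The difference was positive for 5 of 12 probes (41.7%) and for 51.3% of all tested probes. With 1 probe per gene, the brightest, it was positive for 2 of 7 genes (28.6%), Ccnd1 and Ccnd3, against 48.7% of 9408 genes, and the median was -0.14 against -0.01. Knockout brains were more spread than control brains for 8 of 12 probes (66.7%), close to the 62.9% of all tested probes, with a median SD of 0.29 in knockout brains and 0.07 in control brains against 0.22 and 0.16 over all tested probes.

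Whether the groups overlapped depended on single arrays, most of all on knockout replicate 2. Leaving out any 1 array makes it easier for groups not to overlap: over all probes the share was then 16.6% to 22.6%, against 9.30%. For the 12 probes the count was 4 without control replicate 2 or control replicate 3. It was 3 without knockout replicate 1 (25%, against 19.1% of all probes). Without knockout replicate 3 or control replicate 1 it was 2 (16.7%), below the 21.8% and 17.3% of all probes. Without knockout replicate 2, the groups did not overlap for 8 of 12 probes (66.7%), 4 in each direction, against 3106 of 13755 probes (22.6%). Over all probes, 11.2% were higher and 11.4% lower in this way in knockout brains. Without that brain 0 of the 13755 probes passed the adjusted threshold. The 4 with higher values in knockout brains were probes for Ccnd1 (2 probes) and Ccnd3 (2 probes), and the 4 with lower values were the probe for Ccnd2, both probes for Rb1 and the remaining probe for Ccnd1. The difference for the brighter Rb1 probe was then -0.51 (SE 0.22, -1.05 to 0.03, unadjusted p = 0.0596 in limma, adjusted p = 0.797).

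Markers of other cells also differed between the brains, each list being given here as its median log2 value relative to the control mean. For mesenchyme and meninges (8 of 9 markers tested) the medians were -0.68, -2.85 and 0.11 in knockout replicates 1, 2 and 3, and -0.39 to 0.36 in control brains. For endothelium (8 of 10 tested) they were -0.37, -0.84 and -0.02 in knockout brains, and -0.14 to 0.12 in control brains. In these lists knockout replicate 2 was the lowest brain and knockout replicate 1 was also below every control brain. The same held for choroid plexus (5 of 7 tested), at -0.36, -1.65 and -0.04 in knockout brains, and -0.25 to 0.22 in control brains. For erythroid cells (6 of 7 tested) the medians were 0.15, -0.77 and 0.28 in knockout brains, and -0.18 to 0.08 in control brains, so that only knockout replicate 2 was low.
Microglia and macrophage markers ran the other way, at 0.34, 0.13 and 0.28 in knockout brains, and -0.28, 0.11 and 0.07 in control brains. Of 10 markers, 8 were tested and 7 had a positive difference, against 48.7% of all genes. C1qa went the other way, at -0.44. Some of these markers were near background: C1qa and Trem2 were detected on 4 arrays and Tyrobp on 3. All 3 knockout brains were above all control brains in that list, knockout replicate 2 by little, and 0 of its genes passed the adjusted threshold. Young neuron markers were at -0.03, 0.42 and -0.07 in knockout brains, and -0.05 to -0.03 in control brains. Markers of neural progenitors, the dividing cells of the ventricular zone, were at 0.26, 0.08 and -0.01 in knockout brains, and -0.08 to 0.16 in control brains. Markers of basal progenitors and neurogenic commitment (7 of 9 tested) were at 0.18, 0.13 and -0.02 in knockout brains, and -0.05 to 0.08 in control brains. The intensities of each list were also summed on the linear scale, where bright genes weigh most, and the sum turned to log2. For mesenchyme and meninges this ran from 10.37 to 13.41 in knockout brains and from 13.02 to 13.71 in control brains. For neural progenitors it ran from 15.98 to 16.19 in knockout brains and from 15.89 to 16.06 in control brains. In bulk tissue, fewer cells of a type and less RNA per cell cannot be told apart, and the part of the cell mix in the D cyclin, Rb1 and Rbl1 values was not tested. Xist, which is expressed from the inactive X chromosome, read 12.16, 6.53 and 6.53 in knockout brains and 12.13, 6.61 and 12.31 in control brains. It was thus high in 1 of 3 knockout brains and 2 of 3 control brains, and the part of sex in the values of the G1 genes was not tested either.

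**Figure D4:**
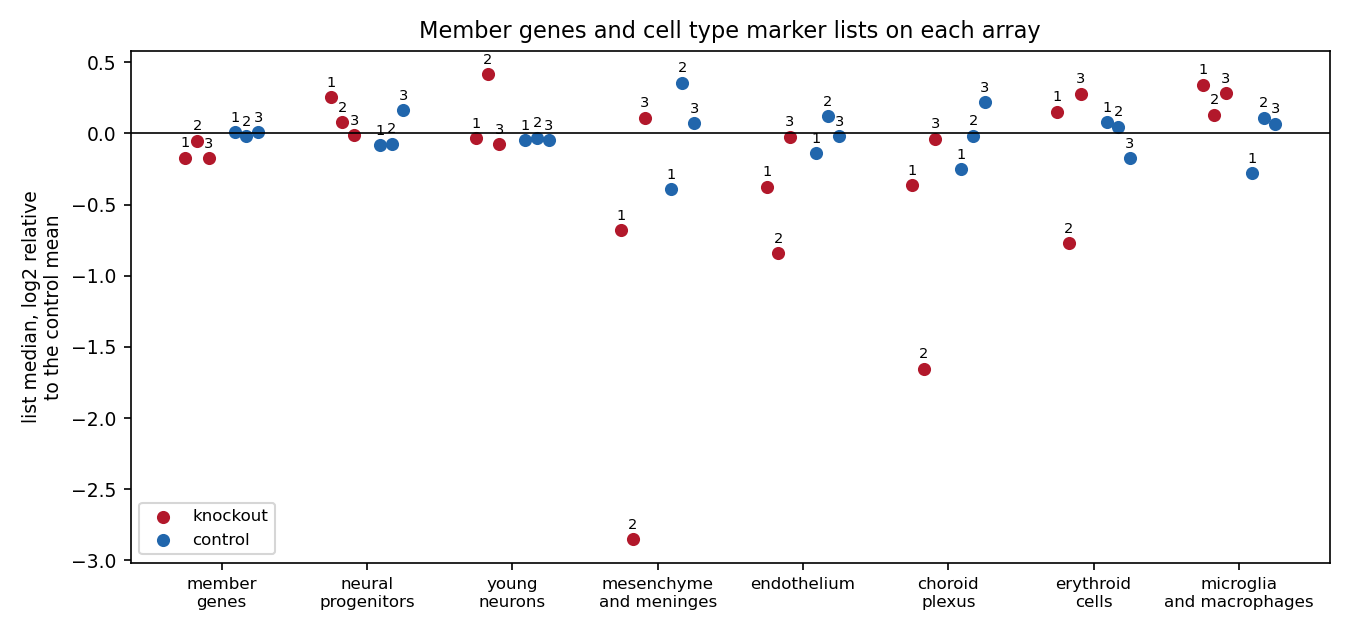
Median log2 value, relative to the control mean, of the genes described here (1 probe per gene) and of 7 cell type marker lists on each of the 3 knockout arrays (red, left) and 3 control arrays (blue). Knockout replicate 2 is low for mesenchyme and meninges (-2.85) and for choroid plexus (-1.65) but not for microglia and macrophages (0.13). The G1 genes are at -0.17, -0.05 and -0.17 in knockout brains, and -0.02 to 0.01 in control brains. With 1 probe per gene, all 3 knockout medians thus lie below the control medians, that of knockout replicate 2 by little. Over all 12 tested probes (not drawn) the groups overlap. Those medians are 7.9e-04, -0.045 and -0.066 in knockout brains, and -0.035 to 0.021 in control brains. A list median does not show the spread of single genes, such as Ccnd2 (12.67 to 14.51).

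Other genes of the G1 to S pathway, each by its brightest tested probe, did not pass the test either: 0 genes of each list below had an adjusted p under 0.05, with 0.999 for every gene named. Of other CDK inhibitors, 4 of 5 were tested and 3 had a positive difference (median 0.17). Cdkn1c, the gene for p57, differed by 0.26 (SE 0.14). Cdkn1a, the gene for p21 and a classical p53 target, differed by -0.25 (SE 0.18), with values of 9.36, 9.37 and 9.66 in knockout brains, against 9.69, 9.44 and 9.999 in control brains. Cdkn1a thus overlapped between the groups.

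Of the E2F and DP factors, which the pocket proteins bind, 8 of 10 were tested and 5 had a positive difference (median 0.05). Tfdp1, the gene for DP1, differed by 0.20 (SE 0.14), and E2f5, a repressor E2F, by -0.25 (SE 0.19). p107 and p130 form the DREAM complex with the MuvB core, and B-Myb was listed beside that core. Of this list, 3 of 6 genes were tested and 2 had a positive difference (median 0.05). Lin54 differed by -0.17 (SE 0.13) and Lin37 by 0.46 (SE 0.41). CDK2 and its partners, which complete the phosphorylation of RB, had 5 of 6 genes tested and 3 positive differences (median 0.06). Ccna2, the gene for cyclin A2, differed by 0.42 (SE 0.33), and Cdc25a, the gene for a phosphatase that activates CDK2, by -0.08 (SE 0.19). The CDK-activating kinase had 1 of 3 genes tested, its assembly subunit Mnat1, at 0.19 (SE 0.13).

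Parts of the ubiquitin ligases that turn over D cyclins, cyclin E and p27 had 10 of 11 genes tested and 2 positive differences (median -0.07). Fbxw7, the receptor that recognises cyclin E, differed by -0.28 (SE 0.19), and Ddb1, an adaptor of CUL4 ligases, by -0.24 (SE 0.16). Of E2F-regulated S-phase genes, 14 of 18 were tested and 8 had a positive difference (median 0.02). Mcm3, a subunit of the replicative helicase, was the only listed pathway gene with an unadjusted p under 0.05 (0.0385 in limma, adjusted p = 0.999). It read 10.53, 10.60 and 10.61 in knockout brains, against 10.38, 10.30 and 10.15 in control brains. All 3 knockout values of Mcm3 were above the controls, with a difference of 0.30 (SE 0.12). By the same gene-level count, 4.17% of all genes had an unadjusted p under 0.05. Mcm7, of the same helicase, differed by 0.27 (SE 0.17). The other subunits of that helicase differed less, by -0.03 for Mcm2, -0.02 for Mcm4, 0.08 for Mcm5 and -0.06 for Mcm6. Of G2 and mitosis genes, 7 of 12 were tested and 4 had a positive difference (median 0.05), with Ube2c, a ubiquitin-conjugating enzyme of the anaphase-promoting complex, at 0.56 (SE 0.29) and Top2a, DNA topoisomerase II alpha, at 0.09 (SE 0.11).

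**Figure D5:**
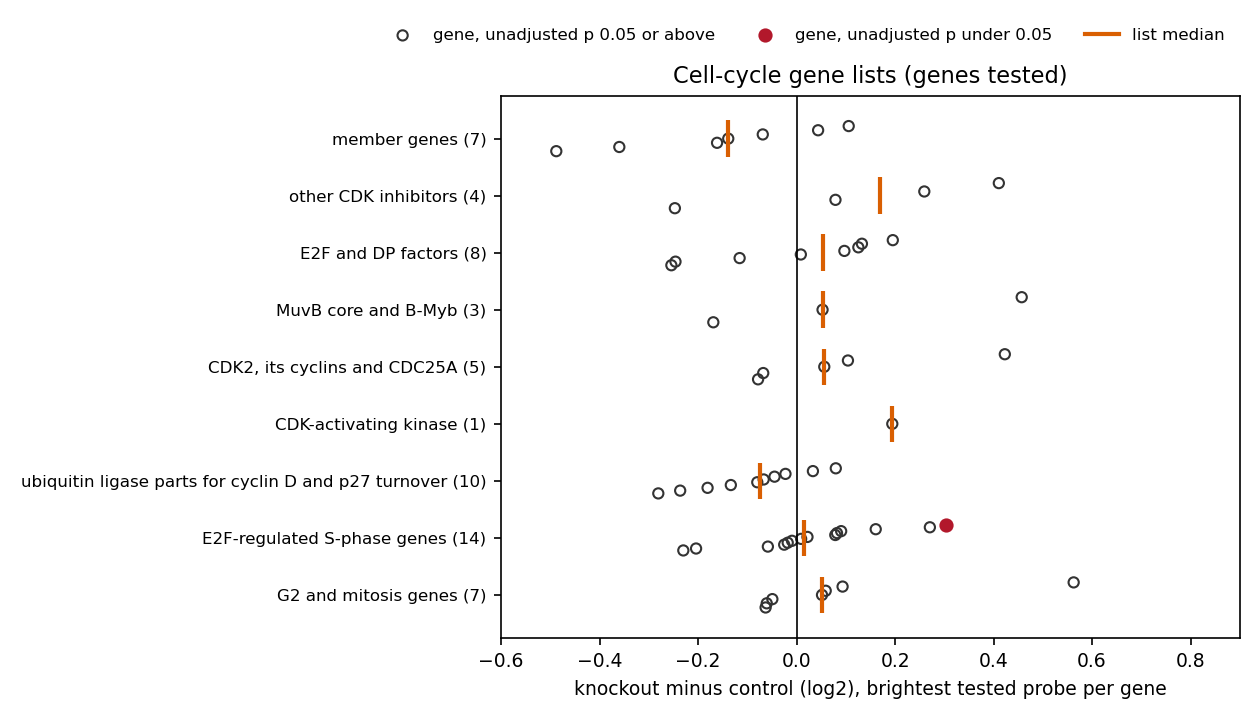
Difference between knockout and control brains (log2, brightest tested probe per gene) for the 7 tested G1 genes and 8 lists of other cell-cycle genes. Each circle is a gene and orange bars are list medians. The filled circle is Mcm3, and the medians lie between -0.14 for the G1 genes and 0.19 for the CDK-activating kinase.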

How the data were processed

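The authors read the BeadArrays with BeadStudio and quantile-normalized them with lumi. The deposited table gives a linear intensity and a detection p-value per probe and array. Its title calls it non-normalized, but the authors' deposited intensity values, once sorted, differed between arrays by at most 1.61%, so they were taken as quantile-normalized; any background subtraction is not given in the sources used here. Of 25699 lines, 2 had an empty probe ID, after which IDs were displaced by 2 lines against the values (84.8% of lines). The empty cells were dropped and IDs and values paired in order. Mean levels of adjacent probes of 1 gene then correlated at r = 0.473 over 5962 pairs, against 0.258 as deposited. Gene symbols came from the platform annotation, updated through gene identifiers, and all 18 probes of the genes described matched.

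Values were background-corrected with neqc in limma 3.58.1 (R 4.3.3, offset 16, with the negative control level estimated from detection p-values), quantile-normalized and turned to log2. Probes with a detection p-value under 0.05 on at least 3 of 6 arrays were fitted with lmFit and eBayes, two-sided, with no covariate and Benjamini-Hochberg adjustment over all 13755 tested probes. The code was tested on simulated data. With 3 arrays a group their number limits the precision. Groups followed the labels.

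The genes, the pathway and marker lists and the tests were chosen with earlier results of these data known. All 10 genes are named, and of each pathway list the 2 genes with the smallest unadjusted p. The other Mcm subunits are given beside Mcm3 and Mcm7. Alternatives covered the background correction, normalization, filter, test, source table, ID pairing, the replicate number as a block and leaving out each array, 16 settings in all. Promoter windows came from RefSeq (GRCm38.p6). Replicate numbers were not used as pairs.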

Additional observations from a re-analysis of the deposited data

How the results depend on the processing

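Across the 16 settings, 11 to 18 probes of these genes were tested. The number of them with an adjusted p under 0.05 was 0 under every setting (lowest adjusted p = 0.705 in limma). Over all probes, that count was 1 with no background correction (adjusted p = 0.00767), with normexp at an offset of 50 (0.0481) and with limma's trend and robust options (0.00153), each time the same unnamed probe, ILMN_2466845. The count at an unadjusted p under 0.05 was 1169 with no filter on dim probes and 481 to 928 when single arrays were left out. Among the genes described, that count was 1 with no filter (Cdkn1b ILMN_2923960, unadjusted p = 0.0109, not detected on any array) and 0 to 1 when single arrays were left out (Ccnd3 ILMN_2661849, without knockout replicate 2).

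The median of the tested differences of these genes was 0.10 with probe IDs as deposited and -0.072 to 0.0091 when single arrays were left out. With IDs as deposited, 4 differences had the other sign: Ccnd1 ILMN_2601471 at -0.49 and ILMN_2669793 at 0.11, Ccnd2 at 0.40 and Cdkn2c at 0.034, since these names then sit on other probes' values. Leaving out single arrays also turned the sign for Ccnd1 ILMN_2669793 (-0.22 to 0.10), Ccnd3 ILMN_3131063 (-0.056 to 0.19) and ILMN_1246473 (-0.020 to 0.29), Cdkn1b (-0.34 to 0.071) and Rbl1 (-0.34 to 0.044). No called value was among them. The groups did not overlap for 66.7% of these probes without knockout replicate 2 (22.6% of all tested probes) and for 33.3% without control replicate 2 (16.6%) or control replicate 3 (17.9%). They did not overlap for 25% without knockout replicate 1 (19.1%) and for 16.7% without knockout replicate 3 (21.8%) or control replicate 1 (17.3%). They did not overlap for 4 of 18 with no filter (22.2%, against 9.48%), 1 of 12 with median scaling (8.33%, against 9.13%) and 0 of 13 with IDs as deposited (9.30%).

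Same-numbered arrays of the groups did not deviate together (correlations of -0.01, -0.08 and -0.15). A fit with the replicate number as a block left 0 adjusted calls and 552 probes at an unadjusted p under 0.05, and changed no call. Signals near background limited Cdk6, Rbl2 and the dim probes for Cdkn1b, Cdkn2c and Ccnd3.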
